A study of Mus musculus with 4 samples.

Results

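The genes described here encode the proteins of the cytosolic ribosome, together with the paralogs and annotated copies that carry the same names. They were chosen by symbol. A member is a protein-coding gene whose symbol is Rpl or Rps followed by a number, or Rplp0, Rplp1, Rplp2 or Rpsa, with the S6 kinases and the Rps19 binding proteins left out. This gave 91 members of the 50600 genes in the files. Of these, 77 were the main genes of the ribosome, 46 for the large subunit and 31 for the small subunit. Another 7 were paralogs with their own sequence, and 7 were copies that mostly lie close to a main gene in sequence, such as Rps27rt. No measured value entered this rule, though it was chosen with earlier results of these data known.

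RNA was sequenced from primary T cells of C57BL/6NJ mice in 4 libraries that form 1 group, so no condition could be compared with another. Age was recorded as unknown and sex was not collected. The donor entry is the same for all 4, and the labels leave unsaid if separate animals or cultures stand behind them. The file headers name the alignments as Th0, the label for T helper cells cultured without polarizing cytokines, and as activated, sorted and 72 h. The assay is labelled as total RNA, while the name of its library protocol speaks of polyadenylated RNA, so the RNA that shares of all TPM refer to is uncertain. No transgene, deletion or drug is named for any library. T cell markers summed to between 3829 and 4054 TPM (length-normalized transcript abundance, counts scaled by gene length and to the same total in each library). The summed level of B cell markers was at most 2.41 TPM, of macrophage markers 1.80 TPM, of red cell markers 0.845 TPM and of natural killer markers 0.426 TPM. Cd8a reached at most 0.511 TPM. Total counts were 34978213, 118937382, 42274502 and 95356041 in replicates 1 to 4.

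A ribosome is built from 2 subunits, each a folded ribosomal RNA clothed in proteins that are made in the cytosol, carried into the nucleolus and assembled there. Most of these proteins are needed once per ribosome, and T cells that leave rest and begin to divide make ribosomes in large numbers. Messenger RNAs of ribosomal proteins typically begin with a run of pyrimidines, the terminal oligopyrimidine or TOP motif, through which the mTOR pathway and the protein Larp1 control how much of them is translated. Mammalian genomes also hold many reverse-transcribed copies of these short and abundant transcripts, and this makes single genes harder to count.

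Starts of members are shown because the TOP run is the sequence feature that these genes are known for. Capitals mark a run of at least 5 pyrimidines that begins with C, directly after A or G, within 5 bases of the RefSeq start. Each line gives 10 bases before the start and 20 bases from it on, 5′ to 3′, from RefSeq promoters on GRCm38.p6. Rps27 lies at chr3:90213629-90213658 on the minus strand, its copy Rps27rt at chr9:114982720-114982749 on the minus strand, and its paralog Rps27l at chr9:66946076-66946105 on the plus strand. Rps6 lies at chr4:86857348-86857377 (minus), Rps10 at chr17:27635225-27635254 (minus), Rpl15 at chr14:18270967-18270996 (minus), Rpl35a at chr16:33056472-33056501 (plus), Rpl39 at chrX:37085203-37085232 (minus) and Rpl24 at chr16:55966265-55966294 (plus).
Rps27: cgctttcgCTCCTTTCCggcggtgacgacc
Rps27rt: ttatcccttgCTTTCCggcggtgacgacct
Rps27l: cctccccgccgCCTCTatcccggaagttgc
Rps6: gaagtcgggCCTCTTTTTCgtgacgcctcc
Rps10: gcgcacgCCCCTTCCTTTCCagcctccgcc
Rpl15: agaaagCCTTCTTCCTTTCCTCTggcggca
Rpl35a: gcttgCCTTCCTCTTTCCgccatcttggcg
Rpl39: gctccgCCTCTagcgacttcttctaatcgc
Rpl24: gctgttgctaggaaacagactgggcgctcg

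The promoter table held an entry for 57 of the 77 main genes and for each of the 7 paralogs. A gene with several annotated starts was counted if any of them met the definition. In 13 of these 57 main genes (22.8%) the annotated start itself was a C followed without a gap by pyrimidines to a run of at least 5, against 2.67% of 17491 protein-coding genes. The capitals above use another definition, a run that begins with C directly after A or G within 5 bases of the start. By it the count was 16 of 57 (28.1%), against 14.8% of all protein-coding genes and 17.4% of mitochondrial ribosomal protein genes. A run counted this way can lie before the annotated start, wholly for Rpl19 and for all but its last base for Rpl39. The definition at the start itself set no condition on the base before the C. The 16 therefore do not contain all of the 13, and Rpl14 and Rpl28, for example, counted only at the start. The sequences shown were picked to include runs in capitals and do not stand for their share. Rpl35a and Rps27l have further annotated starts, not shown, without a run of this kind. A run of at least 8 pyrimidines anywhere from 30 bases before to 50 bases after the start was present in 45 of the 57 main genes (78.9%), in 32.2% of all protein-coding genes and in 30.4% of the nuclear genes for mitochondrial ribosomal proteins. Of the paralogs, 5 of 7 held such a run, and 0 had a run of at least 5 that began with C at the annotated start. Runs were sought as C or T in any order on the strand that reads like the messenger RNA, and longer runs contain the shorter ones. A match describes these letters only, and no test was run. Translation was not measured.

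The 91 members together held 10.84%, 10.51%, 9.86% and 11.11% of all TPM in replicates 1 to 4, a mean of 10.6% ± 0.540 (SD, n = 4). By this share replicate 3 was the lowest and replicate 4 the highest. As a share of counts, with no correction for their short transcripts, the members held 5.10% ± 0.331 (SD, n = 4). By counts replicate 1 was the highest at 5.43%, with replicate 4 at 5.30% and replicate 3 the lowest at 4.69%. Ranked by mean TPM, 6 of the top 10 nuclear genes that encode proteins were members, as were 37 of the top 100. All 77 main genes had at least 1 TPM in every library, 76 had a mean of at least 100 TPM and 31 a mean of at least 1000 TPM. The median over the main genes was 891.6 TPM, with quartiles at 438.5 and 1619 TPM. For orientation, the median over the 78 nuclear genes of the mitochondrial ribosome was 81.0 TPM. In bulk RNA, fewer cells of a type and less RNA per cell cannot be told apart, so none of these levels is a level per cell.

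**Figure D1:**
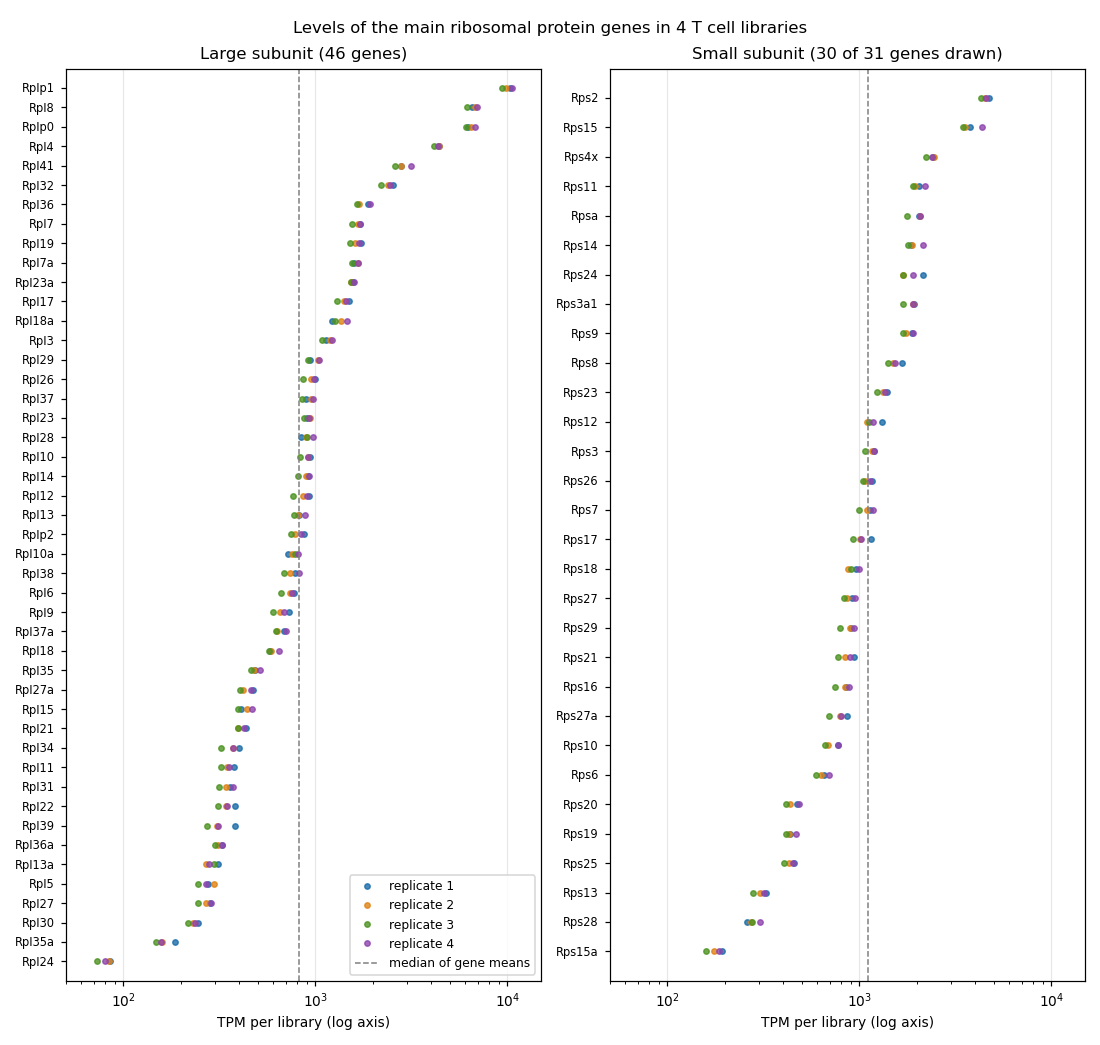
TPM of each main ribosomal protein gene on a log axis, 1 point per library (colours: replicates 1 to 4), large subunit on the left and small subunit on the right, with genes ordered by mean TPM, 1 small subunit gene not drawn, and a dashed line at the median of the gene means. The points of a gene lie close together compared with the distance from Rplp1 at the top to Rpl24 at the bottom.

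The main genes did not stand at a common level, although most of their products are needed in equal numbers. Rplp1 was the highest at 10258, 9786, 9371 and 10628 TPM in replicates 1 to 4, a mean of 10011 ± 548 (SD, n = 4). Rplp1 encodes an acidic protein of the stalk, the arm of the large subunit that recruits translation factors. Rpl8, a large subunit protein next to the catalytic centre, followed at 6529, 6774, 6139 and 6939 TPM (mean 6595 ± 348, SD, n = 4). Rplp0, the base of the stalk, had 6206, 6470, 6112 and 6795 TPM (mean 6396 ± 306, SD, n = 4). Rplp1 stood above both in every library, and Rpl8 stood above Rplp0 in every library although their ranges overlapped. Per length of the main transcript, the order of Rpl8 and Rplp0 turned, with Rplp0 above Rpl8 in every library and Rpl8 at a mean of 85.5% of it. Rps2, which lies near the entry of the messenger RNA channel, had a mean of 4527 ± 179 TPM and Rpl4, which lines the exit tunnel, 4324 ± 131 TPM (SD, n = 4 each). Rps15, a protein of the small subunit head, had 3754, 3551, 3476 and 4374 TPM (mean 3789 ± 407, SD, n = 4), with replicate 4 the highest. Rpl41, one of the smallest proteins of the ribosome, had a mean of 2835 ± 221 TPM and Rpl32, a large subunit protein, 2396 ± 146 TPM (SD, n = 4 each). These 8 genes held 38.6% ± 0.416 (SD, n = 4) of the TPM of all members.

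At the other end stood Rpl24, which forms a bridge between the subunits, with 85.2, 84.3, 73.2 and 80.4 TPM (mean 80.8 ± 5.49, SD, n = 4). It was below every other main gene in every library. Rpl35a had a mean of 162 ± 16.1 TPM, Rps15a 178 ± 14.5 TPM and Rpl30 232 ± 12.5 TPM (SD, n = 4 each). Rpl27, Rpl5, Rps28 and Rpl13a had means between 270.5 and 290 TPM, and the order of Rpl13a, Rps28, Rpl5 and Rpl27 was not the same in every library. Over the whole order of 77 genes, 23 of the 76 neighbouring pairs were in the same order in all 4 libraries. The other neighbours changed order in at least 1 library, so they did not differ beyond the spread. A gene's rank moved by a median of 2 places over the libraries and by at most 12 places, which was Rpl28. The order as a whole was shared between libraries, with Spearman's rho over the 77 genes from 0.991 to 0.997. These points share the gene lengths and the annotation, so no p is given.

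The median level of the small subunit genes was above that of the large subunit genes, although 4 of the 5 highest genes belong to the large subunit. The median of the small subunit genes was 1152, 1066, 1002 and 1142 TPM in replicates 1 to 4 (mean 1091 ± 70.5, SD, n = 4). The median of the large subunit genes was 829.6, 799.6, 768 and 864.5 TPM (mean 815 ± 41.3, SD, n = 4). The medians of the libraries did not overlap. Within libraries the difference of medians on the log2(TPM + 0.1) scale, large minus small, was -0.47, -0.42, -0.38 and -0.40 (mean -0.42 ± 0.04, SD, n = 4). It was negative in 4 of 4 libraries, and an exact sign-flip permutation test (two-sided) gave p = 0.13, the lowest that 4 libraries allow. With counts per length of the main coding transcript it was also -0.42 ± 0.05 (SD, n = 4). By sum the large subunit genes held more, 6.29% ± 0.296 of all TPM against 4.15% ± 0.245 for the small subunit genes (SD, n = 4), since they are more numerous and include Rplp1, Rpl8 and Rplp0.

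Levels of single members depended on the length by which counts were divided. The length column of the files joins all annotated exons of a gene, retained introns and rare variants included. For the main genes it was a median of 2.31 times the length of the main coding transcript in GENCODE M21, against 1.35 times for 11984 protein-coding genes with at least 10 counts in every library. Dividing by the main transcript instead lowered the ratio of the highest to the lowest main gene from 124 to 81.4, and the SD of log2 levels over the 77 genes from 1.29 to 1.08. Both ratios rest on Rpl24, whose counting was limited by an overlapping gene. Without Rpl24, a choice made after seeing the data, they were 61.7 and 20.1, and the SDs 1.24 and 0.97. Rps15a, whose exons sum to 9.80 times its main transcript, moved from rank 75 to rank 48. Rps19, the gene most often mutated in Diamond-Blackfan anaemia, has a ratio of 7.40 and moved from rank 59 to rank 19. Rplp1 stayed first and Rpl24 stayed last by either length. For a few genes the main transcript in GENCODE M21 was longer than the exonic length in the files, which rests on GENCODE M13. Rps24 moved from rank 14 to rank 68 because its main transcript was annotated at 1613 bases in M21 and its exonic length in the files at 840 bases. Such a move reflects different annotation versions, since a transcript cannot be longer than all exons of its gene in 1 annotation. The transcripts in use in these cells were not measured, so neither order can be taken as the order of transcript numbers.

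**Figure D2:**
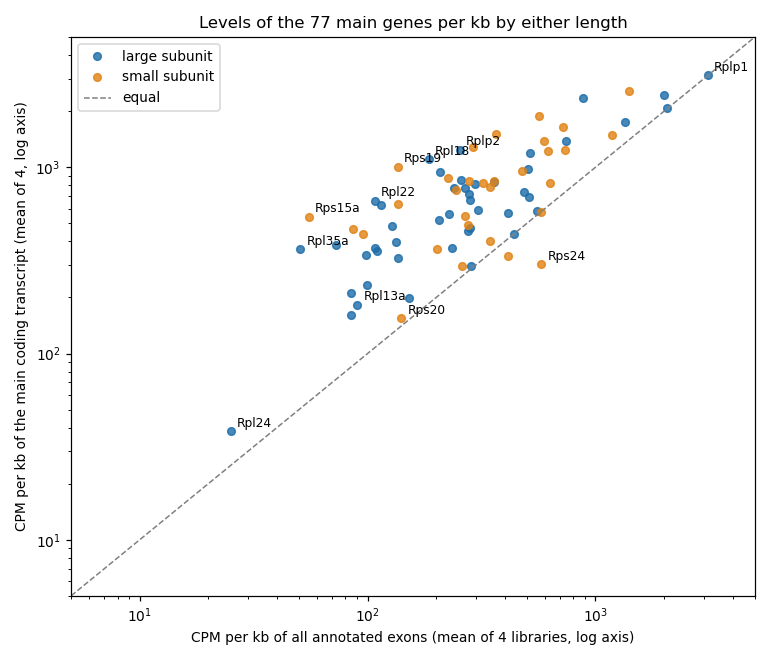
Mean CPM (counts scaled to library size) per kb of main transcript (vertical) against mean CPM per kb of all annotated exons (horizontal) for the 77 main genes, both on log axes, with large subunit genes in blue, small subunit genes in orange and equality as a dashed line. Most genes lie above the line, Rps15a and Rps19 far above it, and Rps24 below it.

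Rpl24 and Rpl13a carried a further limit of the counting. Rpl24 (ENSMUSG00000098274, chr16:55966275-55971435, plus strand, mm10) shares its locus with Gm28037, annotated as a processed transcript on the same strand, and 71.5% of the bases of Rpl24's main transcript lie in exons of Gm28037. For Rpl13a (chr7:45125558-45128761, minus strand), 59.3% of the main transcript lies in exons of Gm45713, which is annotated as protein-coding. Gm28037 and Gm45713 were both at 0 counts in all 4 libraries. Read pairs that fall on exons of 2 genes on the same strand were not counted for either under the settings in the file headers. The levels of Rpl24 and Rpl13a are therefore lower limits as far as these overlaps go. Only 3 main genes had any of their main transcript in such an overlap, the other being Rpl19 at 10.7%.

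The role groups showed how unequal genes of 1 complex were. In the stalk, Rplp1 and Rplp2 encode partners that bind Rplp0 as dimers. Rplp2 had 876, 786, 747 and 841 TPM (mean 813 ± 57.5, SD, n = 4), so that Rplp1 was 12.3 ± 0.426 times Rplp2 by TPM (SD, n = 4). By counts the ratio was 2.97 ± 0.103, and per length of the main transcript 2.51 ± 0.0866 (SD, n = 4 each). The exonic length of Rplp2 is 4.92 times its main transcript, while both lengths are the same for Rplp1. Rplp1 was above Rplp2 by each of these measures.

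Rpl5 and Rpl11 bind the 5S ribosomal RNA, and outside the ribosome the complex binds Mdm2, the ligase that degrades p53. Rpl5 had 275, 297, 244 and 268 TPM (mean 271 ± 21.7, SD, n = 4) and Rpl11 379, 348, 323 and 356 TPM (mean 352 ± 22.9, SD, n = 4). Rpl5 was at 0.772 ± 0.0565 of Rpl11 by TPM and at 0.457 ± 0.0335 per length of the main transcript (SD, n = 4 each). The ranges of TPM did not overlap. Both stood in the lower part of the order of main genes.

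Among the 3 proteins with known roles in signalling or initiation, Rps3, at the messenger RNA entry, had a mean of 1154 ± 59.0 TPM (SD, n = 4). Rps6, the substrate of the S6 kinases downstream of mTOR, had 657, 633, 593 and 695 TPM (mean 644 ± 42.6, SD, n = 4). Rpl13a, which can leave the ribosome to repress translation of some messenger RNAs, had a mean of 290 ± 17.8 TPM (SD, n = 4), under the limit above. Rps27a, made as a fusion with ubiquitin, had 858, 789.6, 692 and 803 TPM (mean 786 ± 69.1, SD, n = 4). Phosphorylation and protein levels were not measured.

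Main genes on the X chromosome were Rpl10, which is needed for subunit joining, Rpl36a, Rpl39 and Rps4x. Rps4x had a mean of 2368 ± 94.7 TPM and Rpl10 897 ± 43.3 TPM (SD, n = 4 each). Rpl36a had 328, 311, 300.01 and 326 TPM (mean 316 ± 13.4, SD, n = 4). Rpl39, a small protein of the exit tunnel, had 380, 306, 273 and 313 TPM (mean 318 ± 45.0, SD, n = 4). Rpl39 and Rpl36a had close means, but Rpl39 spread more widely, with replicate 1 high and replicate 3 low. The 77 main genes lay on 19 chromosomes, with 14 genes (18.2%) on chromosome 7, which holds 9.22% of all protein-coding genes in the files. This difference was not tested.

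Paralogs are genes related to a main gene by descent, and some of them can replace its product in certain tissues. Rpl22 is required for the development of alpha beta T cells, and its paralog Rpl22l1 is known to be held down by Rpl22 protein. Rpl22 (chr4:152325742-152334071) had 381, 344, 311 and 347 TPM (mean 346 ± 28.4, SD, n = 4). Rpl22l1 (chr3:28805436-28807424) had 98.6, 85.9, 84.4 and 89.6 TPM (mean 89.6 ± 6.35, SD, n = 4), or 26.0% ± 0.873 of Rpl22 (SD, n = 4). The difference, paralog minus main gene on the log2(TPM + 0.1) scale, was -1.95 ± 0.05 (SD, n = 4). Both genes were highest in replicate 1 and lowest in replicate 3, which is not particular to this pair. By log2 CPM, 55 of the 77 main genes were highest in replicate 1 and 72 were lowest in replicate 3. Divided by main transcript length the difference was -2.71.

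Rps27l, a paralog of Rps27 that p53 can induce, came closest to its main gene by TPM. Rps27l (chr9:66946086-66949516) had 762, 691, 614 and 658 TPM (mean 681 ± 62.3, SD, n = 4). Rps27 (chr3:90212522-90213651) had 921, 865, 831 and 949 TPM (mean 892 ± 53.6, SD, n = 4). The paralog was below the main gene in each library, at 76.5% ± 6.00 of it (SD, n = 4), and the ranges of the pair did not overlap. The difference was -0.39 ± 0.11 on the log2(TPM + 0.1) scale and -1.28 ± 0.11 per main transcript length (SD, n = 4 each), so the size of the gap rests on the length used. Per main transcript length Rpl36al, at -1.07, was closer to its main gene than Rps27l.

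Rpl36al, the autosomal paralog of Rpl36a, had 206, 201, 189 and 205 TPM (mean 200.2 ± 7.49, SD, n = 4), 63.3% ± 0.850 of Rpl36a. Its difference of -0.66 ± 0.02 log2 units was the one with the smallest spread (SD, n = 4). Rpl7l1, which is related to Rpl7 at 54.0% of aligned coding bases and is linked to nucleolar assembly, had 341, 329, 313 and 314 TPM (mean 324 ± 13.4, SD, n = 4), 19.5% ± 0.787 of Rpl7, a difference of -2.36 ± 0.06 log2 units (SD, n = 4).

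Of the paralogs known from testis and muscle, Rpl10l and Rpl3l were at or near 0. The third, Rpl39l, was low but above 1 TPM in every library. Rpl39l, known from male germ cells, had 1.81, 2.18, 2.41 and 1.39 TPM (mean 1.95 ± 0.449, SD, n = 4), 0.629% of Rpl39, a difference of -7.30 ± 0.46 log2 units. Rpl10l, also known from male germ cells, had 0 counts in every library, and Rpl10 was at least 27757-fold higher per length, taking a count of 0 over the 4 libraries as up to 3 counts. Rpl3l, known from heart and skeletal muscle, had 2 counts in all over the 4 libraries, against 331588 for Rpl3. Per length Rpl3 was 87336-fold higher, with a counting interval at 95% confidence from 24177 to 721158. Rps4l, the autosomal relative of Rps4x, is classed as a transcribed processed pseudogene and is therefore no member. It had 3.95, 2.77, 6.79 and 6.64 TPM (mean 5.04 ± 2.00, SD, n = 4), a difference of -8.94 ± 0.66 log2 units to Rps4x. In each of the 8 pairs the paralog was below the main gene in 4 of 4 libraries, and the exact sign-flip permutation test gave p = 0.13 for each pair and 0.13 after Benjamini-Hochberg adjustment over the 8 pairs.

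**Figure D3:**
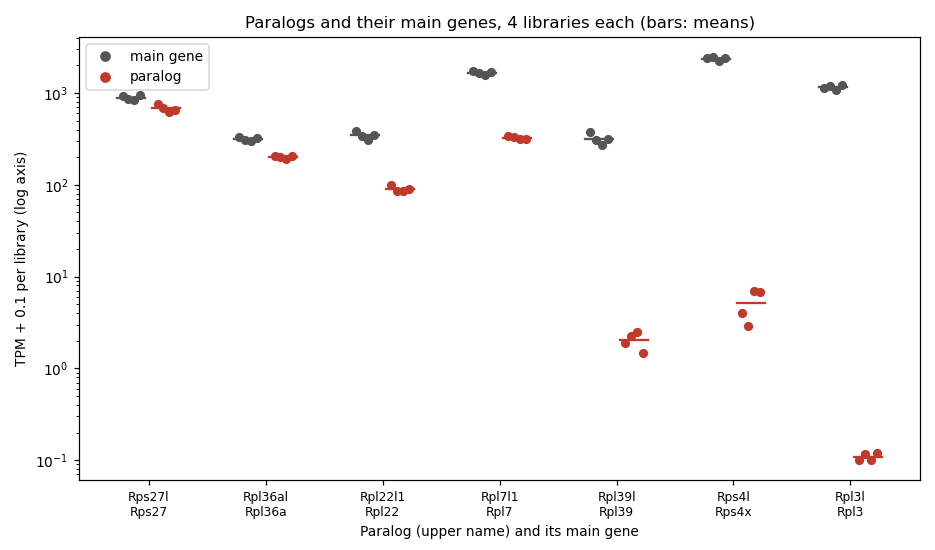
TPM + 0.1 on a log axis for each paralog (red) and its main gene (grey), 1 point per library in the order of replicates 1 to 4 and a bar at the mean, for the 7 pairs in which the paralog had a count. Rps27l and Rpl36al lie just under their main genes, and Rpl39l, Rps4l and Rpl3l lie far under theirs.

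Copies named after main genes had low counts, and for most of them sequence set a limit on what could be counted. Rps12-ps3, Rpl10-ps3 and Rps27rt share 100% of aligned coding bases with Rps12, Rpl10 and Rps27. A stretch of 50 bases that also occurs in another gene was taken as shared. By this measure 100% of Rps12-ps3, 96.1% of Rpl10-ps3, 91.1% of Rps27rt and 89.2% of Rpl9-ps6 was shared. Rps27rt had 22.7, 27.7, 15.7 and 34.2 TPM (mean 25.1 ± 7.84, SD, n = 4), Rpl9-ps6 11.04 ± 1.02 TPM and Rpl10-ps3 7.46 ± 2.33 TPM (SD, n = 4 each). Rpl36a-ps1 had a mean of 2.58 ± 1.39 TPM and Rps12-ps3 2.20 ± 0.964 TPM (SD, n = 4 each). Rpl36-ps4 and Rpl9-ps1 had at most 0.751 TPM in any library. How many of the counts of a copy came from its main gene was not tested.

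The main genes shared sequence too. The median share was 24.4% of their 50-base stretches, and 36 genes had more than 25%. Reads that map to several places were not counted under the settings in the file headers, so counts of the main genes may be incomplete to different degrees. The sequenced read length was not taken into account. Pseudogenes with a symbol that begins with Rpl or Rps and carries the ending -ps numbered 277, and not all need be named after a main gene. Of the 77 main genes, 58 had at least 1 under their name, with 22 for Rps12. Counts of the 277 pseudogenes summed to 0.452% ± 0.0406 of the members' counts (SD, n = 4).

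**Figure D4:**
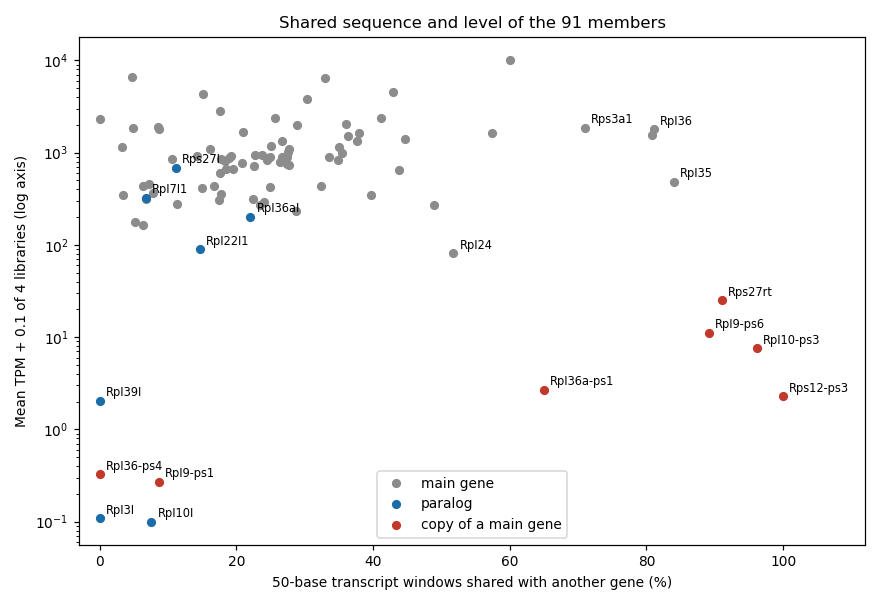
Mean TPM + 0.1 over the 4 libraries (vertical, log axis) against the percentage of a gene's 50-base stretches that also occur in another gene (horizontal) for the 91 members, with main genes in grey, paralogs in blue and copies in red. Copies with 65% or more of shared sequence lie below the main genes, which spread over the whole range of shared sequence up to Rpl35 at 84.0%.

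Spread between the 4 libraries was the one comparison across all genes that a single group allowed. Of 14269 genes tested, 66 (0.463%) varied more than genes of their level at an adjusted p under 0.05 in edgeR's goodness-of-fit test. Of the 86 members tested 1 was called, Rpl39, with an adjusted p of 0.00956 in edgeR. Its log2 CPM around the mean of the libraries was 0.33, -0.07, -0.25 and -0.02 in replicates 1 to 4, a range of 1.49-fold. The call was lost without replicate 1 (adjusted p = 1.00 in edgeR) and without replicate 3 (0.171), and after removal of the trend with gene length (0.0541). At an unadjusted p under 0.05 there were 6 members, beside 5.69% of all genes tested. The 5 members not tested were Rpl10l, Rpl3l, Rpl36-ps4, Rpl36a-ps1 and Rpl9-ps1, all too low in at least 1 library.

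Every main gene stayed within a 1.5-fold range over the libraries, from 1.09-fold to the 1.49-fold of Rpl39, with a median of 1.22-fold. The median SD of log2 CPM was 0.12 for the main genes and 0.10 for all protein-coding genes tested. Among the 7069 protein-coding genes at or above the level of the lowest main gene it was 0.08, and 6 of the 77 main genes had a smaller SD than that median. Among 1529 other protein-coding genes with main transcripts between 459 and 1302 bases, the range of most main genes, the median SD was 0.13. Over all genes tested it was 0.12, so the main genes did not stand out from every background. Members with the largest SD were Rps12-ps3 at 0.50, Rpl10-ps3 at 0.50, Rps27rt at 0.48, Rpl39l at 0.32 and Rpl39 at 0.24, of which the first 4 were low in counts. None of these 4 passed the test. Rpl10-ps3 was low in replicate 1, at 4.04 TPM against 8.03 to 9.13 TPM in the others.

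The main genes moved together between libraries by small amounts. Their median log2 CPM around the mean of the libraries was 0.12, -0.04, -0.14 and 0.06 in replicates 1 to 4. In replicate 3, 72 of the 77 genes were at their lowest and none was above its mean. In replicate 1, 55 of the 77 were at their highest, and in replicate 4 another 21 were. Mitochondrial ribosomal protein genes had medians of 0.10, -0.02, -0.09 and 0.01. Elongation factors had 0.15, -0.01, -0.12 and 0.01. Protein-coding genes with main transcripts between 459 and 1302 bases, the lower and upper decile of the main genes, had 0.06, -0.01, -0.08 and 0.03. Short genes of other kinds thus moved in the same order of libraries by a smaller amount. Spearman's rho of gene length with the centred log2 CPM over protein-coding genes was -0.15, 0.02, 0.28 and -0.15 in replicates 1 to 4, across genes that share libraries. The part of length in the shift of the ribosomal protein genes was not tested.

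**Figure D5:**
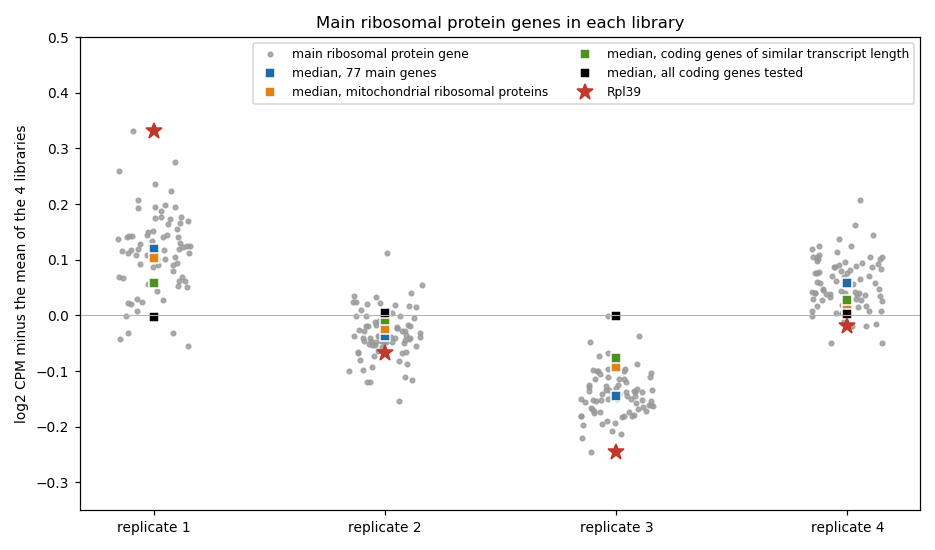
Log2 CPM minus the mean of the 4 libraries for each of the 77 main genes (grey points, spread sideways at random) in each replicate, with Rpl39 as a red star and squares for the medians of the main genes (blue), mitochondrial ribosomal protein genes (orange), coding genes of similar transcript length (green) and all coding genes tested (black). In replicate 3 no main gene is above 0, and the medians of the 3 coloured groups are all below 0 there.

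Other genes of the pathway were taken from separate lists. Fau, which encodes a ribosomal protein of the small subunit fused to a ubiquitin-like protein, had a mean of 1468 ± 130 TPM, and Rack1, a scaffold protein of the small subunit, 1441 ± 71.4 TPM (SD, n = 4 each).

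The 9 elongation factor genes and their modifiers had a median of 968 TPM and ran from 6.48 to 5871 TPM. The highest, Eef1a1, which brings charged transfer RNA, had a mean of 5871 ± 302 TPM, Eef2, the translocase, 5584 ± 377 TPM and Eif5a 1974 ± 81.2 TPM (SD, n = 4 each). The 13 subunits of eIF3, the initiation factor on the small subunit, had a median of 436 TPM, led by Eif3h at 840.1 ± 43.9, Eif3d at 667 ± 29.6 and Eif3l at 606 ± 12.7 TPM (SD, n = 4 each). Among cap binding proteins and regulators of TOP messenger RNAs, 17 genes with a median of 71.0 TPM, the poly(A) binding protein gene Pabpc1 had a mean of 967 ± 34.7 TPM, Eif4b 602 ± 17.0 and the helicase gene Eif4a1 552 ± 22.0 TPM (SD, n = 4 each).

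Lists of genes that make ribosomes had medians below that of the main genes, although their highest members, such as Nhp2, stood above many main genes. RNA polymerase I genes had a median of 58.6 TPM, with Polr1c at 204 ± 13.0, Znrd1 at 149.8 ± 5.83 and Ubtf at 133 ± 2.91 TPM (SD, n = 4 each). Proteins of the small nucleolar particles that modify ribosomal RNA had a median of 172 TPM, with Nhp2 at 449 ± 23.3, Nop56 at 342 ± 7.46 and Nop10 at 240.3 ± 11.6 TPM (SD, n = 4 each). Large subunit assembly factors had a median of 107 TPM, with Bop1 at 313 ± 18.8, Eif6 at 286 ± 18.1 and Nop2 at 269 ± 11.4 TPM (SD, n = 4 each). Small subunit assembly factors had a median of 99.6 TPM, with Pno1 at 215 ± 14.3, Wdr43 at 179.5 ± 2.86 and Tsr1 at 149 ± 3.91 TPM (SD, n = 4 each). Every listed gene that the files hold was at or above 1 TPM in every library, and none was called variable by edgeR's goodness-of-fit test, against 0.463% of all genes. No test was run between these lists.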

How the data were processed

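The deposited files hold raw counts of read pairs per gene, which the authors made with featureCounts 1.4.6-p4 on exons of GENCODE M13 (mm10), reverse stranded, with both ends mapped and without counting multiply mapped or multiply assigned pairs, per the file headers. Headers name STAR alignments as input, with the aligner's version not given in the sources used here. Symbols and classes came from GENCODE M21, which matched 50376 of 50600 identifiers (99.6%). TPM was computed here from the deposited counts and exonic lengths. Differences used log2(TPM + 0.1), which understates differences of low genes, with an exact sign-flip permutation test over libraries. Spread was tested with edgeR 4.0.16 in R 4.3.3 (filterByExpr, TMM, trended dispersion, goodness of fit, Benjamini-Hochberg adjustment over all genes tested, threshold 0.05). The script was tested on simulated data. There, 52.5% of 200 genes changed 1.5-fold in a single library were called, 71% at 2-fold and 87.5% at 4-fold. A gene that was not called may therefore still have varied. CPM are counts scaled to library size. Intervals and limits for low counts cover counting error only. Every spread and p-value measures these 4 libraries and may be technical. No 2 libraries agreed within sampling noise. The members and lists were chosen with earlier results of these data known. Named were the 8 highest and 8 lowest main genes, all paralogs and copies, the role groups, members called variable, the 5 with the largest SD, and the 3 most abundant genes of each pathway list. Alternatives were other scalings, filters, dispersions, lengths and pseudocounts, and leaving out each library. Results for 2 genes are not reported here.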

Additional observations from a re-analysis of the deposited data

Results flagged for a closer look

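Of 104 sets of 4 values looked at, 4 held a library far from the other 3, where chance alone flags about 1 in 20, or 5.2. Rpl4 had 4128.82 TPM in replicate 3 against 4365 to 4411 TPM in the others. Rpsa, the laminin receptor protein of the small subunit, had 1775.83 TPM in replicate 3 against 2037 to 2077 TPM. Rps3a1 had 1682.73 TPM in replicate 3 against 1894 to 1937 TPM. The copy Rps12-ps3 had 3.63 TPM in replicate 4 against 1.61 to 1.87 TPM, and all of its sequence is shared with Rps12. These 3 main genes were low in the library in which 72 of the 77 main genes had their lowest level.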

How the results depend on the processing

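The differences between paralogs and main genes and between the subunits kept their sign, with every library used on the same side, under each alternative that gave a value. Leaving out each library in turn, with a smallest possible p of 0.25, gave -0.43 to -0.40 for large minus small subunit, -1.97 to -1.93 for Rpl22l1, -0.43 to -0.34 for Rps27l, -0.67 to -0.66 for Rpl36al, -2.37 to -2.33 for Rpl7l1, -7.47 to -7.16 for Rpl39l, -9.14 to -8.67 for Rps4l, -13.40 to -13.34 for Rpl3l and -13.16 to -13.11 for Rpl10l. The values of Rpl3l and Rpl10l are set by the pseudocount, since these paralogs had 2 and 0 counts, and with a pseudocount of 1 TPM the values were -10.16 and -9.81. The share of TPM ran from 10.4% to 10.8%. It was 5.10% of counts and 11.7% of the TPM of nuclear protein-coding genes. The number of members called variable was 0 in limma's variance test and 0 with the length trend removed in edgeR. At an unadjusted p under 0.05 there were 16 of 86 members in limma, beside 648 of all 14269 genes tested. With the length trend removed there were 4 of 86 members, beside 801 of 14269 genes. The number of members called ran from 0 to 1 with a library left out, the 0 being without replicate 1 and without replicate 3. With a common dispersion the single call was Rps27rt in place of Rpl39, and all genes called numbered 955 instead of 66. Over all genes, limma called 27, edgeR with the length trend removed called 69, and leaving out a library gave 41 to 68. Coding length from a RefSeq protein table was not run, and coding length in GENCODE M21 and main transcript length took its place, chosen after seeing the data. Rps4l has neither, so those alternatives gave no value for it. No paired analysis was possible because the labels give a single group. Copies and paralogs with few counts are limited by depth: a gene at 0 counts may have had up to 3.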
